A study of Mus musculus with 33 samples.

Results

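Prg2, Ccr3, Il5ra, Il1rl1, Fcer1a and Ms4a2 are 6 genes of eosinophils, basophils and mast cells, and they were taken by name from the 750 endogenous probes of a mouse immune gene panel. Their transcripts were counted with the NanoString nCounter, which tallies hybridised barcodes without amplification, in total bone marrow (BM) RNA of 33 female C57BL/6 wild-type mice aged 6 to 8 weeks, 1 lane per mouse. Mice received the BCL2 inhibitor venetoclax once daily or the JAK1/2 inhibitor ruxolitinib 2 times a day by oral gavage for 2 days, and BM was taken 1, 3 or 7 days after treatment, from 3 mice per drug and day. The vehicle of each drug was given to 2 mice per day: phosal, polyethylene glycol and ethanol for venetoclax, and DMSO, polyethylene glycol and water for ruxolitinib. A further 3 mice were left untreated, which makes 13 groups. The RNA came from whole marrow, so fewer cells of a type and less RNA per cell cannot be told apart in any value given here.

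Eosinophils and basophils mature in the marrow, whereas mast cells leave it as progenitors and mature in tissues. Prg2 encodes major basic protein, the main granule protein of eosinophils, which is made mostly while the cells mature. Il5ra encodes the alpha chain of the receptor for IL-5, the cytokine that drives eosinophil growth and signals through JAK2, and Ccr3 encodes the receptor for the eotaxins, which draw eosinophils into tissues and is also found on basophils. Fcer1a and Ms4a2 encode the alpha chain, which binds IgE, and the beta chain, which amplifies the signal, of the high-affinity IgE receptor of basophils and mast cells. Il1rl1 encodes ST2, the receptor for IL-33, on mast cells, basophils and some lymphocytes.

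The lanes differed widely in depth. The endogenous probes summed to 18056 to 466096 counts per lane (median 158944), and the background of a lane, set 2 SD above the mean of the 8 negative probes, lay between 1.83 and 7.85 counts. Venetoclax replicate 1 of day 1 and ruxolitinib replicate 1 of day 3 were the 2 lanes with fewer than 30000 counts, so a single count weighs heavily there. The file headers put each day's 10 dosed mice and 1 of the untreated mice under the same day name. Each such set of lanes is taken here as a run, so day and run cannot be told apart. Levels are normalised counts, that is, counts scaled by the housekeeping probes. Probes differ in efficiency, so a level, or a sum over the same probes, is compared only between mice.

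Prg2 was measurable in every mouse, and Il5ra was mostly not. Prg2 exceeded background in 33 of 33 lanes, with a median raw count of 454 and a lowest of 29. Il1rl1 exceeded it in 31 lanes, Fcer1a and Ms4a2 in 30 lanes each, and Ccr3 in 24. Il5ra exceeded it in 14 lanes, and its highest raw count was 13, so its values lie near the background. Few other markers of these cells could be checked. Il3ra, the IL-3 receptor alpha chain listed for basophils, was above background in 31 lanes. Cma1, the mast cell chymase, was above background in 1 lane with at most 6 counts, Tpsab1, a mast cell tryptase, in 5 lanes, Kit, the stem cell factor receptor of mast cells and progenitors, in 26, and Itga2, an integrin of basophils and natural killer cells, in 18. Of the markers in lists drawn up for each type, 3 of 6 for eosinophils, 4 of 6 for basophils and 5 of 9 for mast cells were among the probes analysed here.

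**Figure D1:**
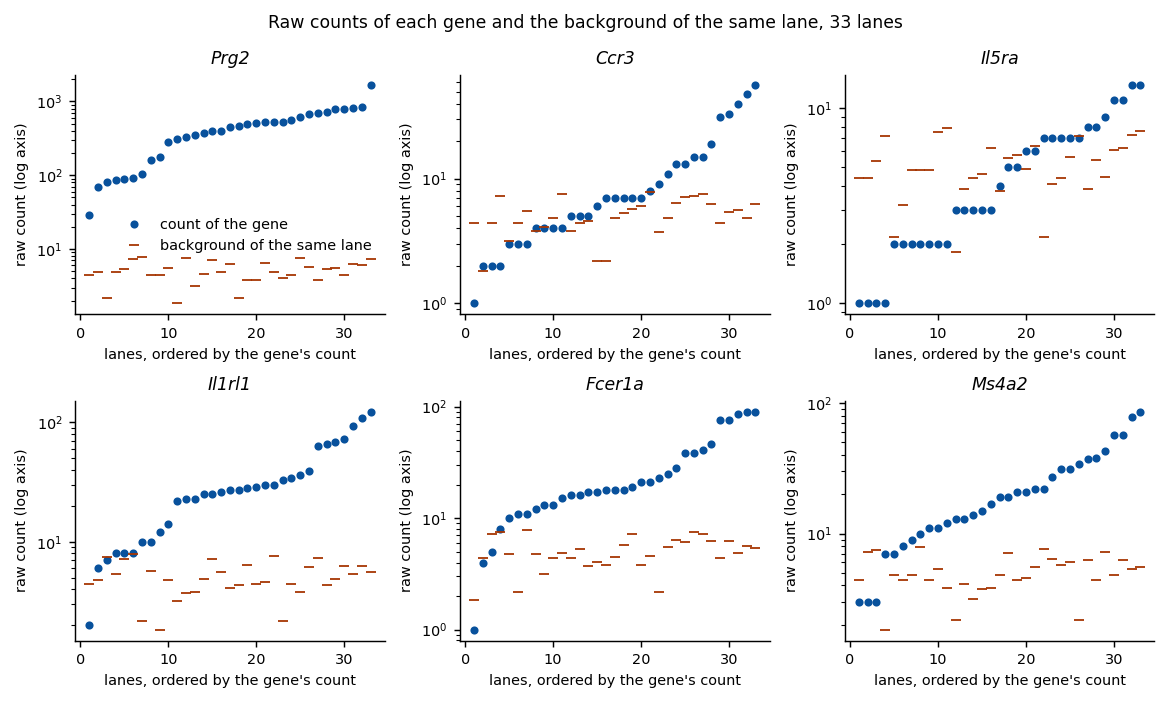
Raw count of each gene (points) and the background of the same lane (dashes) in the 33 lanes, ordered by the count of the gene, on log axes. Prg2 lies above background in every lane, Ccr3 in 24 and Il5ra in 14.

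The sequence before the annotated start of a gene is shown for Fcer1a, Ms4a2 and Ccr3, the 3 genes with the largest rise on day 7. GATA factors are known regulators of eosinophil, basophil and mast cell genes, and capitals mark the letters GATAA on either strand (TTATC on the other strand). Each is the 250 bases before the start in RefSeq, mouse build GRCm38.p6, written 5′ to 3′ on the strand of the gene. The starts are those of 1 transcript each and lie within the annotated extent of the gene.
Fcer1a, chr1:173227230-173227479, minus strand: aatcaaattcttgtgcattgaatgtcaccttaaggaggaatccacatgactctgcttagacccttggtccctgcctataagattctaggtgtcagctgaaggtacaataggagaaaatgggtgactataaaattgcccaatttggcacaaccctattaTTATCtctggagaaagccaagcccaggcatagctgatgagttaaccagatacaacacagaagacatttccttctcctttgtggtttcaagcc
Ms4a2, chr19:11623720-11623969, minus strand: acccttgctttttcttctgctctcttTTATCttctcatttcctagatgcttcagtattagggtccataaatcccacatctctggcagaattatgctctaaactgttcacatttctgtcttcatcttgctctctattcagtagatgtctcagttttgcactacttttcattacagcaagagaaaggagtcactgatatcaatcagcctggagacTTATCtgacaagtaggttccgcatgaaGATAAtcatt
Ccr3, chr9:124021721-124021970, plus strand: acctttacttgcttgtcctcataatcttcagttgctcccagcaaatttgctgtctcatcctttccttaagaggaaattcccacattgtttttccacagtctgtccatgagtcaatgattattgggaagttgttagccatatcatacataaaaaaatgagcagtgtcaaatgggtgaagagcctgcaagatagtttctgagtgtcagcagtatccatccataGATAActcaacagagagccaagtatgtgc
The letters stood once before Fcer1a, 92 bases from the start, and once before Ccr3, 29 bases from the start. Ms4a2 held them at 3 places, 224, 37 and 10 bases from the start. The RefSeq table held 6 windows of 5 of the genes, 2 of them of Il1rl1, and all 6 contained GATAA or TTATC, against 22.6% of 32851 windows of the same length. TATAAA or its reverse complement TTTATA was in 1 of the 6, that of Fcer1a, against 12.4% of all windows. A match is a description of letters and not a binding site, and no entry was found for Prg2.

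The first question was whether either drug changed these genes relative to its own vehicle. No member passed the test in any of the 36 comparisons of a gene with drug and day (quasi-likelihood test of edgeR in 1 model of the 13 groups, Benjamini-Hochberg adjustment over 655 genes, threshold 0.05), and the lowest adjusted p was 0.243. The same model gave an unadjusted p under 0.05 in 1 of the 36, and DESeq2 and limma also called 0 of 36, each with 1 unadjusted p under 0.05. Few genes of any kind were called. Venetoclax changed 0.153% of the 655 genes on day 1, 0% on day 3 and 0.153% on day 7. The share after ruxolitinib was 2.75% on day 1 and 0.153% on both day 3 and day 7. For venetoclax on day 3, edgeR gave 70 genes with an unadjusted p under 0.05, and DESeq2 called 1 gene and limma none.

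Prg2 after ruxolitinib on day 1 had the smallest p-value of the 36. The 3 ruxolitinib-treated mice had 235, 347 and 287 normalised counts of Prg2, and the 2 vehicle-treated mice had 645 and 564. Every treated mouse lay below both controls. The means were 290 ± 56.0 (SD, n = 3) and 604 ± 56.9 (SD, n = 2), and the vehicle group had the highest mean of all 13 groups. The log2 fold change of Prg2 was -1.06 (SE 0.42, 95% interval -1.91 to -0.21), with an adjusted p of 0.243 by edgeR. A fit of only these 5 mice gave -1.05 and an adjusted p of 0.000151, where 11.8% of all genes passed. With untreated mice as control the value was -0.90 with an adjusted p of 0.305. The untreated mice had 1056, 294 and 297 normalised counts of Prg2, and 294 and 297 lay within the range of the ruxolitinib-treated mice. The -0.90 thus leans on 1 untreated mouse. In the comparison with vehicle the median of all genes was 0.13. None of the tested markers of neutrophils (6), B cells (7), T cells (5), NK cells (4), monocytes and macrophages (5) or megakaryocytes (2) passed in this comparison. Prg2 did not pass either, and 2.75% of all genes did. The log2 changes of these markers lay between -0.94 for Ncr1 and 1.60 for Klra1, the latter above background in 2 lanes.

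At later times, and with venetoclax on days 1 and 3, the Prg2 levels of treated and control mice overlapped. On day 3 the ruxolitinib-treated mice had 512, 179.6 and 222 normalised counts of Prg2 against 429 and 231, and on day 7 they had 230.4, 243 and 217 against 222 and 176. Neither day separated the groups. Venetoclax gave 161, 491 and 655 on day 1 against 534 and 412, where the lowest value came from the shallowest lane, with 29 raw counts. On day 7 the venetoclax-treated mice, at 278, 249 and 245, all lay above their controls at 207 and 230.3, a log2 difference of 0.24 (SE 0.45, adjusted p = 0.999). Whether the effect of ruxolitinib on Prg2 differed between days was not tested.

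Ms4a2 gave the next smallest p-value, after venetoclax on day 3. The treated mice had 27, 19.6 and 24.5 normalised counts of Ms4a2 and the vehicle-treated mice 15 and 15.2, with no overlap. The log2 fold change was 0.65 (SE 0.32, 95% interval -0.01 to 1.31) and the adjusted p 0.455. After ruxolitinib on the same day Ms4a2 stood at 16.5, 14.6 and 13.6 against 17.1 and 17.8 in its vehicle group, all below the controls, a log2 difference of -0.27 (SE 0.37, adjusted p = 0.998). The 16.5 rests on 3 raw counts, not above background. Over the 6 comparisons the log2 change of Ms4a2 lay between -0.30 and 0.65.

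For Fcer1a, the partner of Ms4a2 in the IgE receptor, none of the 3 differences after venetoclax passed. On day 3 the venetoclax-treated mice had 15.7, 15.4 and 16.6 normalised counts of Fcer1a, all below the vehicle-treated mice at 19.6 and 18.7, a log2 difference of -0.25 (SE 0.36, adjusted p = 0.878). On day 7 they had 27.8, 26.1 and 27.8, again below both controls at 33.2 and 30.9, at -0.25 (SE 0.33, adjusted p = 0.999). On day 1 the values were 22.2, 11.2 and 2.12 against 18.3 and 16.7, and the first and the last of these rest on 4 and 1 raw counts, not above background. The log2 difference there was -0.79 (SE 0.45, adjusted p = 0.556), and between -1.13 and -0.44 with 1 mouse left out, the last without the mouse of 1 raw count. With limma after background subtraction it was -1.36 (adjusted p = 0.297). After ruxolitinib the log2 difference of Fcer1a lay between 0.00 and 0.16 on the 3 days.

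Ccr3 had low counts and wide intervals. On day 3 the ruxolitinib-treated mice had 11, 7.52 and 3.72 normalised counts of Ccr3 from 2, 19 and 3 raw counts, and the vehicle-treated mice had 3.67 and 2.43 from 3 raw counts each. The groups did not overlap, but only the lane with 19 counts was above background. The log2 fold change was 1.16 (SE 0.68, 95% interval -0.22 to 2.54) and the adjusted p 0.998, and with untreated mice as control the sign turned, to -0.95. Across the 6 comparisons Ccr3 ranged from -0.74 to 1.16.

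Il1rl1 had the narrowest range over the drug comparisons. Its log2 changes lay between -0.35 and 0.47, and no interval extended beyond -1.08 or 1.16. After ruxolitinib the 3 mice of day 1 had 18.8, 17 and 15.3 normalised counts of Il1rl1 against 21.1 and 21.9, all below the controls. On day 3 they had 44, 28.5 and 36 against 26.9 and 21.1, all above, where the 44 rests on 8 raw counts against a background of 7.21. The adjusted p-values were 0.674 and 0.998. Il5ra, near background throughout, ranged from -1.15 to 0.82 over the 6 comparisons, and its intervals from -2.75 to 2.19 include changes of several fold in either direction.

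Groups that did not overlap were not rare. With 3 mice against 2, members stood apart from their vehicle in 11 of 36 comparisons. Of all 655 genes, 27.5%, 26.1% and 17.3% stood apart after venetoclax on days 1, 3 and 7, and 44%, 15.6% and 17.7% after ruxolitinib.

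**Figure D2:**
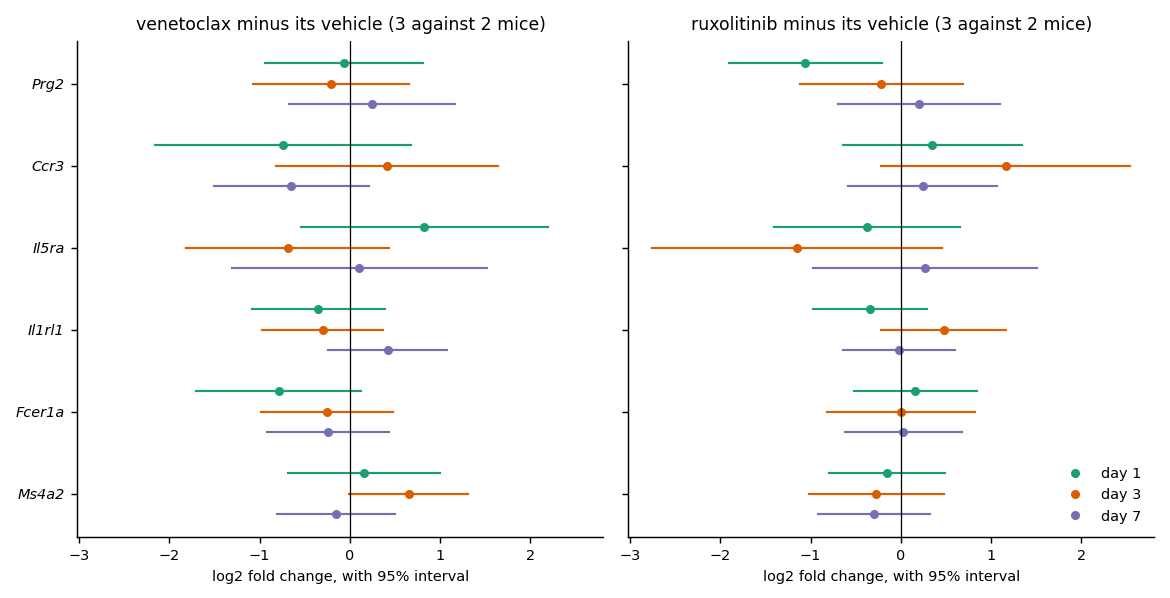
Log2 fold change of each gene, drug minus its own vehicle, on days 1, 3 and 7, as points with 95% intervals. All intervals but that of Prg2 after ruxolitinib on day 1 include 0, and no value passed the adjusted threshold.

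Averaged over the 3 days, 9 mice against 6, no member passed for either drug. The mean log2 change after venetoclax was -0.01 for Prg2, -0.32 for Ccr3, 0.08 for Il5ra, -0.08 for Il1rl1, -0.43 for Fcer1a and 0.22 for Ms4a2. Fcer1a had the lowest p of these, with SE 0.22, a 95% interval from -0.88 to 0.02 and an adjusted p of 0.582 by edgeR. After ruxolitinib the values were -0.36 for Prg2, 0.58 for Ccr3, -0.42 for Il5ra, 0.04 for Il1rl1, 0.06 for Fcer1a and -0.24 for Ms4a2. Ccr3 had SE 0.31, an interval from -0.05 to 1.22 and an adjusted p of 0.551, its sign turned with untreated mice as control, to -0.58, and it was 0.32 without ruxolitinib vehicle replicate 1 of day 7. Of all genes, 2.9% passed for venetoclax and 1.22% for ruxolitinib. Over these 12 tests edgeR gave no unadjusted p under 0.05, DESeq2 and limma called none, and limma after background subtraction gave 1 unadjusted p under 0.05 and no call.

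The drugs were also set against each other, each as its change from its own vehicle, and none of 24 tests of a member passed. Of all genes, 1.68% passed on day 1, 0.153% on day 3, 0.305% on day 7 and 0.611% in the mean over days. The change of Ccr3 was lower with venetoclax than with ruxolitinib by 0.91 on average in log2 units (value -0.91, SE 0.46, 95% interval -1.85 to 0.03, adjusted p = 0.579), and the value was -0.61 without venetoclax vehicle replicate 1 of day 1. For Ms4a2 on day 3 the difference was 0.92 (SE 0.49, interval -0.07 to 1.92, adjusted p = 0.999). For Prg2 on day 1 it was 0.99 (SE 0.61, interval -0.24 to 2.22, adjusted p = 0.493). All 3 intervals include 0, and they also include differences of nearly 2 log2 units. By edgeR no unadjusted p was under 0.05, DESeq2 and limma called none, and limma after background subtraction gave 1 unadjusted p under 0.05 and no call.

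The vehicles and the untreated mice were compared to see whether dosing itself moved these genes, 12 mice against 3. Of the 655 genes 0% passed (75 with an unadjusted p under 0.05 by edgeR, and DESeq2 called none and limma 1), and 0 of the 6 members passed by any of the 3 tools. Ccr3 came nearest, with 12.8, 9.71 and 23.6 normalised counts in the untreated mice, from 4, 13 and 7 raw counts, and a log2 difference of -0.97 for vehicles minus untreated (SE 0.41, 95% interval -1.81 to -0.14, adjusted p = 0.391). Prg2 gave -0.60 (SE 0.30, adjusted p = 0.446), but its untreated mice had 1056, 294 and 297, and the highest of these set the sign, which turned to 0.28 without that mouse. The median of all genes in this comparison was -0.14.

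The differences that passed the test lay between days. This comparison was added after the values had been seen, and it takes all 10 dosed mice of a day, whether given drug or vehicle, with the 4 dosed groups weighted equally. Ccr3, Fcer1a, Ms4a2 and Il1rl1 were higher on day 7 than on day 1, and Prg2 was lower. The call for Il1rl1 depended on the scaling, the tool and 1 mouse, and that for Ms4a2 on the tool and 1 mouse. Day and run cannot be told apart, so these are equally differences between runs.

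Ccr3 had 3.11, 4.86 and 9.71 normalised counts on day 1 (lowest, median and highest of 10 mice), 2.43, 4.37 and 11 on day 3, and 3.47, 16.6 and 22.5 on day 7. A single mouse of day 7, with 2 raw counts, lay within the range of day 1, and the other 9 lay above it. The log2 difference between days 7 and 1 was 1.48 (SE 0.25, adjusted p = 1.05e-05 by edgeR). Fcer1a had 2.12, 15.9 and 22.2 on day 1, 15.4, 17.4 and 27.5 on day 3, and 22.3, 27.8 and 33.2 on day 7. Fcer1a was higher on day 7 than on day 1 by 0.97 (SE 0.18, adjusted p = 4e-05 by edgeR). Its days 1 and 7 did not overlap, but only narrowly, at 22.2 and 22.3. The 22.2 rests on 4 raw counts, not above background. The share of all genes without overlap between days was not counted.

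Ms4a2 and Il1rl1 shifted less, with overlapping mice. Ms4a2 had 9.56, 14.7 and 16.6 normalised counts on day 1 and 13.9, 23 and 36.5 on day 7, a log2 difference of 0.66 (SE 0.17, adjusted p = 0.00153). The call for Ms4a2 was lost with limma after background subtraction (adjusted p = 0.0886) and without ruxolitinib vehicle replicate 1 of day 7. With 1 mouse left out the value lay between 0.52 and 0.79. Il1rl1 had 11.1, 21.1 and 28.7 on day 1 and 18.6, 28.4 and 46.9 on day 7, a difference of 0.49 (SE 0.16, adjusted p = 0.0136). The call for Il1rl1 was lost under TMM scaling (0.32, adjusted p = 0.122), with all 20 housekeeping probes (0.33, adjusted p = 0.113) and with DESeq2 (0.32, adjusted p = 0.206) or limma (0.45, adjusted p = 0.0796, and 0.46 with adjusted p = 0.243 after background subtraction). It was also lost without venetoclax vehicle replicate 1 of day 7 (0.50, adjusted p = 0.0504).

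Prg2 went the other way. It had 161, 451 and 655 normalised counts on day 1 (lowest, median and highest), 179.6, 411 and 612 on day 3 and 176, 230.4 and 278 on day 7. The spread between mice also narrowed, from an SD of 172 on day 1 to 27.3 on day 7. The log2 difference of Prg2 between days 7 and 1 was -0.96 (SE 0.22, adjusted p = 0.000489). Il5ra gave -0.58 (SE 0.31, adjusted p = 0.135) and passed under TMM scaling alone of the scalings run (-0.75, adjusted p = 0.037). Its value was -0.24 with limma, and between -0.68 and -0.35 with 1 mouse left out, the last without venetoclax vehicle replicate 1 of day 7. Of the 3 eosinophil markers tested, 1 was thus higher, 1 was lower and 1 did not pass. Of the 4 basophil markers tested, 2 were higher, Fcer1a and Ms4a2, and 2 did not pass, Il3ra at -0.21 (adjusted p = 0.291) and Itga2 at 0.44 (adjusted p = 0.216). Of the 4 mast cell markers tested, 3 were higher, Fcer1a, Ms4a2 and Il1rl1, and Kit did not pass at 0.28 (adjusted p = 0.358).

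Many other genes also differed between these days. Of the 655 genes, 46% passed, 29.2% higher and 16.8% lower on day 7, beside 5 of the 6 members, 4 higher and 1 lower. The median of all genes was 0.14 with housekeeping scaling, -0.04 with TMM scaling, 0.34 with total count scaling and -0.02 with all 20 housekeeping probes. Relative to that median, Ccr3 differed by 1.34 to 1.36, Fcer1a by 0.83 to 0.84, Ms4a2 by 0.53, Il1rl1 by 0.35 to 0.36, Il5ra by -0.72 to -0.70 and Prg2 by -1.12 to -1.08 over the 4 scalings. With housekeeping scaling, 97.4% of all genes had a lower value than Ccr3 and 3.97% a lower value than Prg2.

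Days 1 and 3 were not separated by these genes. Of all genes 0% passed between those days (40 with an unadjusted p under 0.05 by edgeR, and DESeq2 and limma called none), and 0 of 6 members passed, with no unadjusted p under 0.05. The log2 differences between days 3 and 1 lay between -0.43 for Il5ra and 0.34 for Ms4a2. From day 3 to day 7, 37.6% of all genes passed, and so did 3 members: Ccr3 at 1.68 (SE 0.26, adjusted p = 7.12e-06), Fcer1a at 0.66 (SE 0.17, adjusted p = 0.0028) and Prg2 at -0.75 (SE 0.22, adjusted p = 0.00664). The calls for Fcer1a and Prg2 were each lost in 1 of 30 alternatives. Ccr3 was above background in 4 of the 10 dosed lanes of day 3, against 9 of 10 on days 1 and 7, and its difference from day 3 was 1.48 with limma and 2.30 with limma after background subtraction. Ms4a2 gave 0.32 (adjusted p = 0.127), Il1rl1 0.29 (adjusted p = 0.164) and Il5ra -0.15 (adjusted p = 0.795).

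In mice that had received vehicle alone, 4 on each day, 4 of the 6 members passed by edgeR, 2 with limma, 2 with DESeq2 and 1 with limma after background subtraction. These mice are among the 10 dosed mice of each day, so their values are no separate evidence. Ccr3 had 9.71, 3.19, 4.58 and 5.14 normalised counts on day 1 and 18.8, 16.9, 10.1 and 22.5 on day 7, with no overlap, at 1.48 (SE 0.36, adjusted p = 0.00257). Fcer1a went from 18.3, 16.7, 16.5 and 14.0 to 33.2, 30.9, 27.5 and 24.6, with no overlap, at 0.86 (SE 0.26, adjusted p = 0.012). Prg2 went from 534, 412, 645 and 564 to 207, 230.3, 222 and 176, with no overlap, at -1.35 (SE 0.34, adjusted p = 0.00324). Ms4a2 went from 16.2, 9.56, 15.6 and 14.7 to 22.3, 36.5, 24.1 and 14.3, and overlapped, at 0.78 (SE 0.25, adjusted p = 0.0189). It was 0.49 without ruxolitinib vehicle replicate 1 of day 7, and its call was also lost under TMM scaling (adjusted p = 0.0547) and with all 20 housekeeping probes (adjusted p = 0.0669). Il1rl1 gave 0.21 (adjusted p = 0.548) and Il5ra -0.56 (adjusted p = 0.412). Of all genes 30.1% passed here, and the share of all genes without overlap in these mice was not counted. The count fell from 4 to 2 without venetoclax vehicle replicate 2 of day 1, ruxolitinib vehicle replicate 2 of day 1 or ruxolitinib vehicle replicate 1 of day 7, where Fcer1a and Ms4a2 lost their calls, and without venetoclax vehicle replicate 1 of day 7, where Ccr3 and Fcer1a did.

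The untreated mice carried no dosing day, and 1 of them was read in each run. The untreated mouse read with day 7 had 23.6 normalised counts of Ccr3, 53.9 of Fcer1a and 37.1 of Ms4a2, the highest of all 33 mice for each gene, from 7, 16 and 11 raw counts in a lane of 37003. Those read with days 1 and 3 had 12.8 and 9.71 of Ccr3, 25.6 and 14.2 of Fcer1a, and 9.60 and 14.2 of Ms4a2. Prg2 was at 1056 in the mouse read with day 1 and at 294 and 297 in those read with days 3 and 7. For Il1rl1 the values in run order were 22.4, 18.7 and 27. With 1 untreated mouse in a run there is no spread to compare these with.

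**Figure D3:**
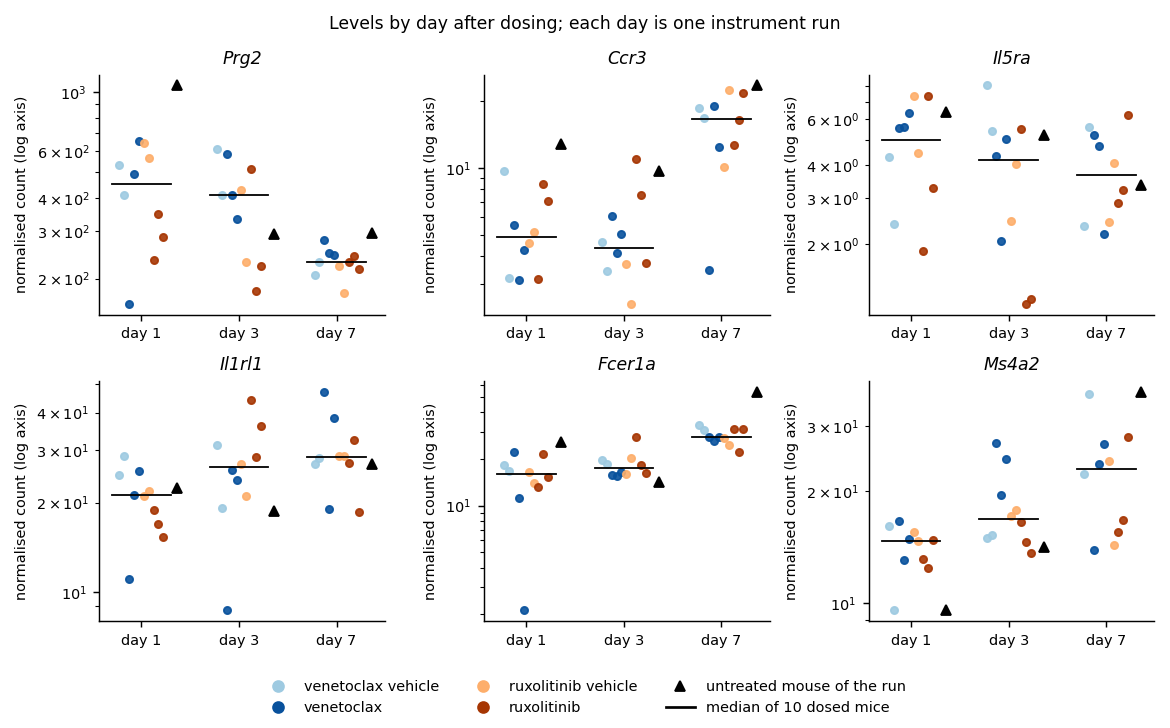
Normalised count of each gene in the 10 dosed mice of each day (points, coloured by agent, line at the median) and in the untreated mouse of the same run (triangle), on log axes. In dosed mice the medians of Ccr3, Fcer1a and Ms4a2 are highest on day 7 and that of Prg2 is lowest, while each triangle is 1 mouse with no spread.

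Some markers of other marrow cells also differed between days 7 and 1. The counts below stand beside the 46% of all genes that passed, 29.2% higher and 16.8% lower. Of the neutrophil markers, 5 of 6 were higher on day 7 than on day 1 and 1 was lower. Their summed level had medians of 90195, 93720 and 57315 on days 1, 3 and 7, within ranges of 54463 to 120749, 64875 to 112815 and 49022 to 74711. That sum mostly follows S100a8, the 1 that was lower, with a mean of 71727 normalised counts, where Camp had the next highest at 6359. Elane (2.14), Mpo (1.45) and Ctsg (1.95), which encode primary granule enzymes, were higher, as were Ltf (1.23) and Camp (0.59), which encode granule proteins made at later stages, and S100a8 (-0.88), a calprotectin subunit, was lower. Of 7 B cell markers, 2 were higher, among them Cd79b (1.07), and 4 were lower, among them Pax5 (-1.02). Among T cell markers 1 of 5 was higher, among NK cell markers 2 of 4, among monocyte and macrophage markers 3 of 5, and among megakaryocyte markers 0 of 2 changed. Their part in the differences of the members was not tested. The depth of the lanes differed too, with 5 of the 10 dosed mice under 70000 counts on day 7 and 1 of 10 on days 1 and 3.

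**Figure D4:**
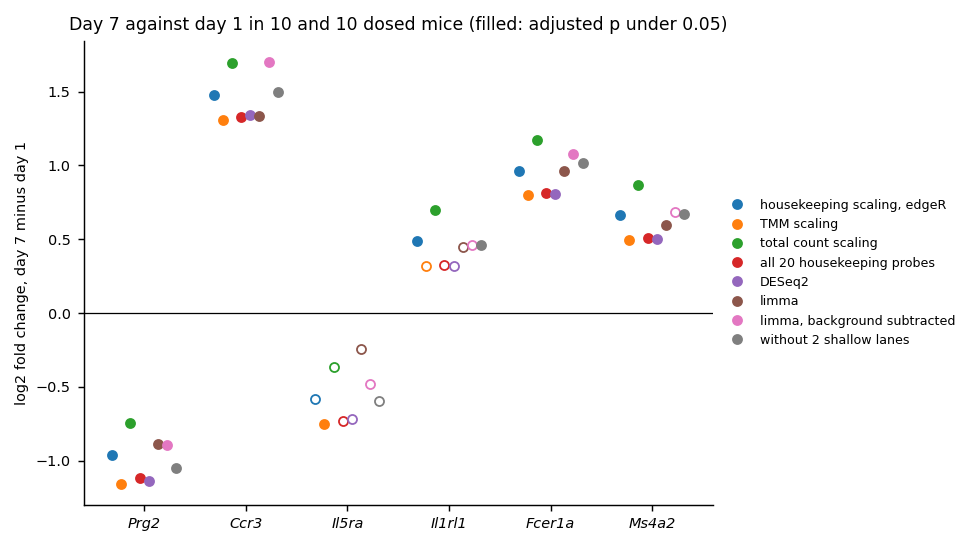
Log2 fold change of each gene, day 7 minus day 1 in dosed mice, under 8 settings of scaling, tool and lanes (filled points passed the adjusted threshold). Ccr3 lies between 1.31 and 1.70 and Prg2 between -1.15 and -0.75, and Il1rl1, Il5ra and Ms4a2 each change sides of the threshold under at least 1 setting.

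Across the 13 groups, the group means of Prg2 were lowest on day 7, and those of Ccr3 and Fcer1a were highest on day 7 and in untreated mice. Prg2 was highest in the ruxolitinib vehicle group of day 1 (604 ± 56.9, SD, n = 2) and lowest in that of day 7 (199 ± 32.5, SD, n = 2), and the 4 groups of day 7 filled the last 4 places. For Ccr3 the 4 groups of day 7 and the untreated mice filled the first 5 places, from 17.8 ± 1.34 (SD, n = 2) in the venetoclax vehicle group to 11.6 ± 7.78 (SD, n = 3) with venetoclax, and the ruxolitinib vehicle group of day 3 was lowest at 3.05 ± 0.88 (SD, n = 2). Fcer1a had the same 5 groups first, from 32.1 ± 1.63 (SD, n = 2) in the venetoclax vehicle group down to 26 ± 2.04 (SD, n = 2) in the ruxolitinib vehicle group, and venetoclax on day 1 last at 11.8 ± 10.05 (SD, n = 3). Ms4a2 ranged from 29.4 ± 10.1 (SD, n = 2) in the venetoclax vehicle group of day 7 to 12.9 ± 4.68 (SD, n = 2) in that of day 1. Il1rl1 ranged from 36.2 ± 7.77 (SD, n = 3) with ruxolitinib on day 3 to 17 ± 1.76 (SD, n = 3) with ruxolitinib on day 1, and Il5ra from 6.74 ± 1.89 (SD, n = 2) to 2.64 ± 2.48 (SD, n = 3). Of the 12 neighbouring pairs in each order, 1 did not overlap for Prg2, Il1rl1 and Ms4a2 each. For Ccr3, Il5ra and Fcer1a the number was 0. Neighbours in an order by mean are close from the start, so their overlap does not tell whether they differ.

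**Figure D5:**
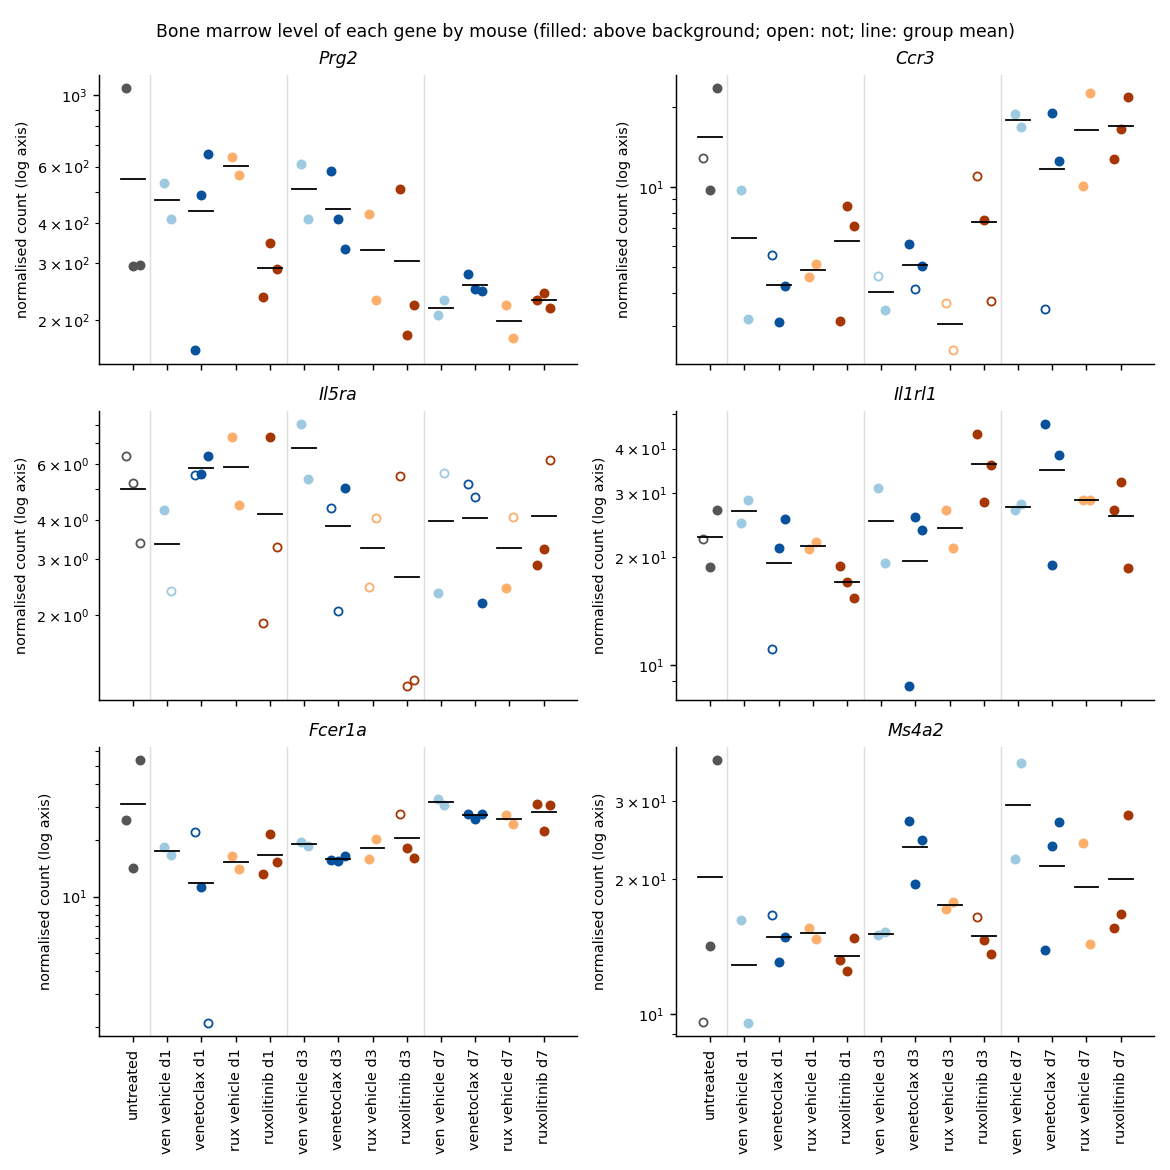
Normalised count of each gene in every mouse by group, on log axes (filled points above background, open points not, lines at group means). The 4 groups of day 7 are the lowest for Prg2 and among the highest for Ccr3 and Fcer1a.

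Within the set, pairs of genes varied together to different degrees. Over the 33 mice the Spearman correlation was 0.67 between Ccr3 and Fcer1a, 0.45 between Fcer1a and Ms4a2, 0.43 between Ccr3 and Ms4a2 and 0.46 between Prg2 and Il5ra, while Prg2 gave -0.44 with Fcer1a and -0.32 with Ccr3. After each group's mean was subtracted, Ccr3 and Fcer1a stood at 0.29, Fcer1a and Ms4a2 at 0.37, Ccr3 and Ms4a2 at 0.52, Prg2 and Il5ra at 0.40 and Prg2 and Fcer1a at 0.03. The points share runs and lane depths, so these are descriptions.

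The genes most alike to 5 of the members over the 33 mice, among the 210 probes above background in every lane, were found in the same descriptive way, and Il5ra, above background in 14 lanes where 17 were required, was left out. For Prg2 they were S100a8 (Spearman 0.77), Il7r, the IL-7 receptor chain of lymphoid cells (0.75), and Itch, a ubiquitin ligase (0.75). For Ccr3 they were Emr1, which encodes the macrophage and eosinophil antigen F4/80 (0.66), Jak2 (0.64) and Chil3, a chitinase-like protein of myeloid cells (0.64). For Fcer1a they were Jak2, Emr1 and Selplg, the ligand of P-selectin, all at 0.75. For Ms4a2 they were Ltf, the neutrophil granule protein lactoferrin (0.69), Cyfip2 (0.62) and Selplg (0.62), and for Il1rl1 Tfrc, the transferrin receptor (0.59), Isg20 (0.58) and Lgals3 (0.47). Only 2 of these 15 pairs kept a place among the first 3 after group means were subtracted, Prg2 with Il7r and Ccr3 with Jak2.

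The partners and ligands of these receptors were read from a list of 86 genes of the same cells and pathways, of which 45 were on the panel and 34 were tested. Of 14 ligands on the panel 5 were tested, and Il4, Il3, Il25, Csf2, Ccl24, Ccl26 and Ccl28 were above background in 0 lanes and Il5 and Il9 in 1 lane each. After the drugs, none of the 34 passed in any of the 6 comparisons with vehicle (204 tests, 6 with an unadjusted p under 0.05 by edgeR, and DESeq2 and limma called none). The median log2 change of the 34 was -0.05, 0.11 and -0.09 after venetoclax on days 1, 3 and 7, beside -0.02, 0.06 and -0.01 for all genes. After ruxolitinib it was 0.15, 0.05 and 0.03, beside 0.13, 0.02 and 0.02.

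Between days 7 and 1, 10 of the 34 were higher and 5 lower, with a median of 0.21 beside 0.14 for all genes and the 46% of all genes called. Among receptor chains, Il1rap, the partner of ST2, was higher by 1.04 (SE 0.19, adjusted p = 4e-05), with medians of 14.1 and 26.4 normalised counts on days 1 and 7. Fcer1g, the gamma chain of the IgE receptor, was higher by 0.56 (SE 0.15, adjusted p = 0.00211). Csf2rb, the shared beta chain of the IL-3, IL-5 and GM-CSF receptors, was lower at -0.54 (SE 0.14, adjusted p = 0.00219), from a median of 141 to 92.1, and Il4ra was lower at -0.43 (adjusted p = 0.00299). In signalling, Jak2, which carries the IL-5 signal, was higher by 1.00 (SE 0.17, adjusted p = 9.59e-06), from a median of 61.2 to 105. The kinase Syk (0.60), the phosphatase Inpp5d (0.46), the adaptor Myd88 (0.85) and the kinase Irak4 (0.53) were also higher, and the kinases Irak2 (-0.57) and Lyn (-0.25) lower. The transcription factors Runx1 (0.81) and Xbp1 (0.46) and the eosinophil-attracting chemokine Ccl5 (0.83) were higher, and Gata3 (-0.85) was lower. The sign of each of these 15 held under the 4 scalings and 3 further tools run, while Ccl5 and Il4ra passed in 6 of those 7, Lyn and Gata3 in 4 and Inpp5d, Irak4 and Xbp1 in 3.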

How the data were processed

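Total BM RNA of 33 mice was hybridised to an nCounter mouse immune gene panel, whose product name differs between the methods and the deposited design text. The deposited files hold raw barcode counts per probe, which the authors had not normalised, 1 file per lane. The panel has 750 endogenous, 20 housekeeping and 8 negative control probes. Groups were taken from the labels. The file headers of the lanes labelled day 3 read day 2, and the labels were followed. The labels name separate mice and say nothing of litters.

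For scaling, the 11 housekeeping probes that exceeded background in every lane were combined as a geometric mean. Background was the mean plus 2 SD of the negative probes, and the 655 genes above it in at least 2 lanes were tested. The quasi-likelihood test of edgeR 4.0.16 (R 4.3.3) was run in 1 model of the 13 group means, and p-values were adjusted by Benjamini-Hochberg over the 655 genes at 0.05. The 95% intervals use the moderated t distribution. DESeq2 1.42.0, limma 3.58.1 (log2 of the normalised count plus 1), other scalings, filters, controls and left-out mice were tried as alternatives. The script was tested on simulated data. All 6 members were named whatever their values, and further genes were named from lists of pathway partners and markers or by rank of likeness. The members and lists were chosen with earlier results of these data known. Intervals of counts cover counting error and the spread between mice only. Values of B cell markers other than those named are not reported here.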

Additional observations from a re-analysis of the deposited data

Results flagged for a closer look

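Differences of effect between days or drugs were marked where every treated mouse lay on one side of its controls in one comparison and on the other side in the other. Il5ra after venetoclax was higher than vehicle in all mice on day 1 and lower in all mice on day 3, and the log2 changes differed by 1.51. This difference was not tested, and the counts were near background. Il1rl1 after ruxolitinib was lower than vehicle in all mice on day 1 and higher in all on day 3, a difference of -0.81 in log2 units that was not tested. The highest Il1rl1 value of day 3, in ruxolitinib replicate 1, rests on 8 raw counts against a background of 7.21. Ms4a2 on day 3 was higher than vehicle in all mice after venetoclax and lower in all after ruxolitinib, a difference of 0.92 with an adjusted p of 0.999 by edgeR. Of those ruxolitinib-treated mice, replicate 1 had 3 raw counts of Ms4a2, not above background. Groups of 2 or 3 mice are too small for a check of single outlying mice.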

How the results depend on the processing

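Of the drug comparisons by day, 0 of 36 passed, and 1 passed in fits of only the groups compared (Prg2 after ruxolitinib on day 1, at -1.05, where 11.8% of all genes passed) and 1 with untreated mice as control (Prg2 after ruxolitinib on day 7, at -1.22 against 0.20 with vehicle as control, where 13.3% of all genes passed). For that -1.22 the untreated mice had 1056, 294 and 297 normalised counts of Prg2, against 230.4, 243 and 217 in the treated mice. The value thus leans on untreated replicate 1. With untreated mice as control the sign of Ccr3 after ruxolitinib turned, to -0.95 on day 3 and -0.58 in the mean over days. Prg2 in vehicle against untreated mice turned to 0.28 without untreated replicate 1, and ranged from -0.92 to 0.28 with 1 mouse left out. Between days 7 and 1, 5 of 6 members passed. When genes averaging under 20 normalised counts were left out (354 remained), 3 members were tested and all 3 passed. With limma after background subtraction 3 of 6 passed, and leaving out 1 mouse gave 4 to 5. Between days 7 and 3, 3 passed, 5 with total count scaling, and 3 with any 1 mouse left out. There Prg2 and Fcer1a each lost the call in 1 alternative (adjusted p = 0.0506 and 0.0772). In vehicle-treated mice 4 passed, 3 with TMM scaling or all 20 housekeeping probes, and 2 of the 3 tested with that filter on counts. In the same mice 2 passed with limma, 2 with DESeq2, 1 with limma after background subtraction, and 2 to 4 with 1 mouse left out. The counts of 0 stayed at 0 with any 1 mouse left out. Ms4a2 between days 7 and 1 lost its call with limma after background subtraction (adjusted p = 0.0886) and without ruxolitinib vehicle replicate 1 of day 7 (adjusted p = 0.0545). The calls of Prg2, Ccr3 and Fcer1a between days 7 and 1 held under every alternative run that tested them. Of the 15 most alike genes, 8 were found by Pearson correlation and 2 after group means were subtracted. The day comparisons were chosen after seeing the data, and the cause of these shifts was not tested.

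Whether replicate numbers pair the mice could not be decided. Deviations from the group mean correlated above 0.1 in 4 of 12 same-numbered pairs (range -0.35 to 0.30). The deviations within a vehicle group are exact opposites, so its pairs are not independent, and no reference value was set for such a count. With the replicate number as a block, 0 drug comparisons, 5 members between days 7 and 1, 3 between days 7 and 3 and 4 in vehicle-treated mice passed, so the block moved no count. Il5ra and Ccr3 were above background in the fewest lanes, and members were above background in 162 of 198 readings, or 158 against the highest negative probe.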
